A study of Mus musculus with 8 samples.

Results

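The proteasome genes of mouse embryonic stem (ES) cells were followed after treatment with cisplatin, a platinum drug that crosslinks DNA. The members are all genes whose symbol begins with Psm, a letter from a to g and a digit, each read by the brightest of its probe sets (mean of 8 arrays) among those annotated to 1 gene. This gave 47 of the 17098 genes measured, read by 74 probe sets in all. RefSeq lists 51 protein-coding mouse genes with such a symbol (assembly GRCm38.p6), and the other 4, Psmc6, Psmd10, Psme2b and Psme4, were not analysed here. The members comprise 14 subunits of the constitutive core, 3 of the immunoproteasome, 2 tissue-restricted core subunits, 16 cap subunits, 6 assembly factors and 4 activators or inhibitors. Another 2, Psmc3ip and Psme3ip1, fall under the rule only because they are named after a subunit that they bind, so they are given apart.

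The cisplatin group (4 arrays) received 2.5 µM of the drug for 8 h and the control group (4 arrays) the solvent dimethyl sulfoxide instead. Both groups were HPRT deficient ES cells of strain C57BL/6 at passages 19 to 22, moved from feeder cells to gelatin before treatment, and RNA from each sample was hybridised to 1 array. HPRT is a purine salvage enzyme, and its deficiency is shared by treated and control cells. The labels give no separate cultures for the replicates, numbered 3 to 6 in both groups, so the p-values cover only the variation among these samples, and that may be technical. The precision is limited by the number of arrays. The median standard error of a log2 change was 0.05 over the members and 0.08 over all genes.

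The proteasome degrades proteins that carry ubiquitin chains. Its core is a barrel of stacked rings, the outer ones built of alpha subunits that gate the entry and the inner ones of beta subunits, of which Psmb5, Psmb6 and Psmb7 carry the catalytic sites. A cap of ATPase and non-ATPase subunits binds, unfolds and feeds the substrate. In immune cells and under interferon, Psmb8, Psmb9 and Psmb10 replace Psmb5, Psmb6 and Psmb7 to form the immunoproteasome, which favours peptides suited to presentation by MHC class I molecules. Cells short of proteasome activity raise most subunit genes together through the transcription factor encoded by Nfe2l1.

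Promoter windows are shown for Psmb9, the member with the largest change, for its constitutive counterpart Psmb6, and for Psmb8 and Psme1, which are also known as interferon-responsive genes. Each window runs from 250 bases before to 50 after a RefSeq transcription start on GRCm38.p6 and is printed 5′ to 3′ on the gene's strand. They are chr17:34187281-34187580 (minus strand) for Psmb9, chr11:70525107-70525406 (plus) for Psmb6, chr17:34197945-34198244 (plus) for Psmb8 and chr14:55578244-55578543 (plus) for Psme1. Capitals mark matches on either strand to the CCAAT box (CCAAT), the GC box (GGGCGG), the interferon-stimulated response element (GAAA repeated after any pair of bases) and the gamma-interferon activation site (TTCNNNGAA), and no capitalised matches overlap.
Psmb9: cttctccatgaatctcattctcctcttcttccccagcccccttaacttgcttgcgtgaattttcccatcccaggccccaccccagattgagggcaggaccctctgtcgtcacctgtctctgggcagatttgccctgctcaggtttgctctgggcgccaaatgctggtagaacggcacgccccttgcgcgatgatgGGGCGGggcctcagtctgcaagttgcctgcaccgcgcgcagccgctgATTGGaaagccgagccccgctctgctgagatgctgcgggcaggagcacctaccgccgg
Psmb6: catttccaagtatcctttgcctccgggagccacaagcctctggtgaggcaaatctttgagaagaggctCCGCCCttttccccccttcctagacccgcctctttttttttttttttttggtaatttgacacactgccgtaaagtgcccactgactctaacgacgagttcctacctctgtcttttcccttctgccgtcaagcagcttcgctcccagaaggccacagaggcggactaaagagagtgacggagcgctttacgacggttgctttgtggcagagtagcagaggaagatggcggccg
Psmb8: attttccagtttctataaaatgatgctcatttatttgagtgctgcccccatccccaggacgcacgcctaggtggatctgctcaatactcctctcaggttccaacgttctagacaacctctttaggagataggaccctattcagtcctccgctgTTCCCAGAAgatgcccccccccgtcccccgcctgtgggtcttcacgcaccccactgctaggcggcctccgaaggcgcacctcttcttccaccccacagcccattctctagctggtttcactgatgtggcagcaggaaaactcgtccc
Psme1: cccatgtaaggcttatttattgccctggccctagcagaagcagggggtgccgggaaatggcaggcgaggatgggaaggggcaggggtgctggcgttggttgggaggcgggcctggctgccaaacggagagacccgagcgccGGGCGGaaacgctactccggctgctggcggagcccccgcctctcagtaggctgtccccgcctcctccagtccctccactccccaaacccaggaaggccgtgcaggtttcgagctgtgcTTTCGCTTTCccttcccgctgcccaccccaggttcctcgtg
The Psmb9 window held a GC box and, on the other strand, a CCAAT box. The Psmb8 window held 1 match to the gamma-interferon activation site and that of Psme1 held 1 to the interferon-stimulated response element, at bases 260 to 269 of the window and so after the start. Psmb6 held only a GC box among these motifs. The windows of the interferon-related members Psme2 and Psmb10, not printed here, held no match to either interferon motif, and neither did that of Psmb9. A match describes letters and is no evidence of binding, and a motif absent from a window may lie outside it.

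Windows were found for 39 of the 47 members. Of these genes, 5 (Psmb3, Psmd4, Psmd9, Psme1 and Psmg4) held the letters of the interferon-stimulated response element in at least 1 window, or 12.8%, where 3.44% of all 32851 promoter windows hold them. The gamma-interferon activation site was present in 3 members (7.69%) and in 8.30% of all windows, and the CCAAT box in 15 (38.5%) and 37.4%. The GC box was found in 21 members (53.8%, against 35.7% of all windows). The letters TGANNNNGC, a loose form of the antioxidant response element, were found in 23 (59.0%, against 41.3% of all windows). The Nfe2l1 product acts through that element. The motif of p53, by its usual degenerate decamer, was found in 1 member, Psmb11 (2.56%, against 8.36% of all windows). Some members have more than 1 window, so the shares of genes and of windows are not strictly alike.

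The comparison asked whether the transcripts of the proteasome respond to cisplatin within 8 h. Psmb9, the immunoproteasome counterpart of the catalytic subunit gene Psmb6, was 1.86-fold higher with cisplatin. By the authors' normalization the core and cap subunit genes lay within narrow bounds of their control levels. Of the 47 members, 5 were higher and none lower at an adjusted p under 0.05 (limma, Benjamini-Hochberg over all 17098 genes): Psmb9, Psmc1, Psme1, Psmc3ip and Psme3ip1. Over all genes 19.3% passed, 11.6% as higher and 7.69% as lower, so in this fit the members' share of 10.6% called was not above that of genes in general. That comparison depends on the test. With an intensity trend 14 of the 47 members passed, where 22.7% of all genes did. With an ordinary t statistic 8 passed, where 16.3% of all genes did. An unadjusted p under 0.05 (limma) was found for 12 of the 47 members and for 5306 of the 17098 genes. The groups did not overlap for 14 of the 47 members (29.8%), against 24.3% of all genes. For the core and cap genes it was 8 of 30 (26.7%). Among all genes at least as bright as the dimmest of these it was 36.7%, so the members' share was not high for their brightness. The median log2 change was 0.05 over the members and 0.01 over all genes. Centring the arrays on the median of all tested genes, which lowers every change by 0.13, gave medians of -0.08 and -0.12, and turned the sign of 26 members, so small changes below are given relative to the authors' normalization. Under it 60.2% of all calls were higher, and 21.7% after centring.

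**Figure D1:**
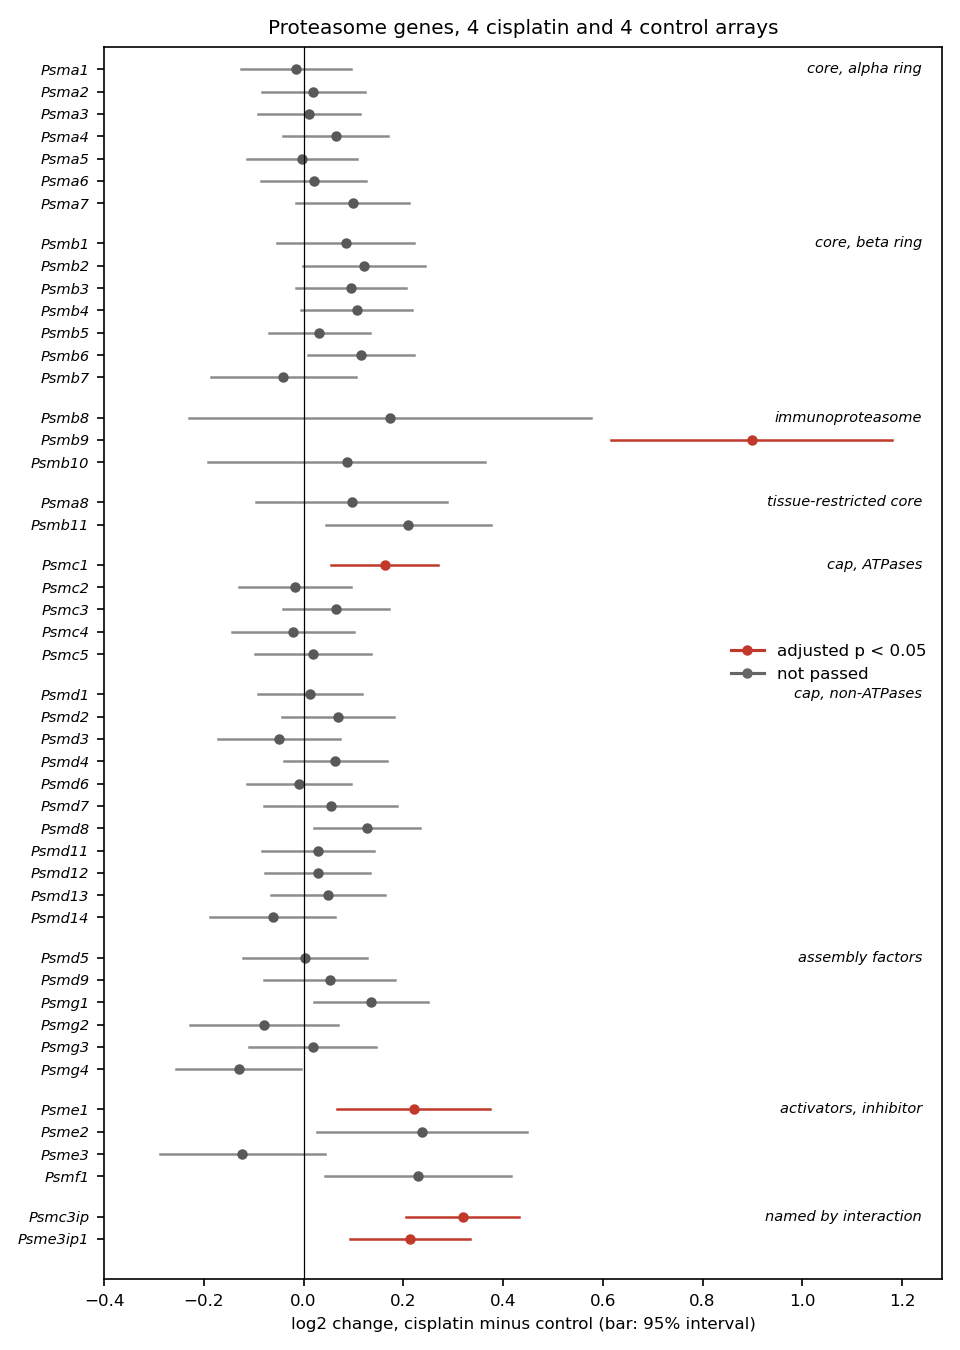
Log2 change (cisplatin minus control) of the 47 members by role, with 95% intervals; the 5 members in red passed an adjusted p under 0.05. Psmb9 lies at 0.90, and the 30 core and cap subunits lie between -0.06 and 0.16.

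Of the 7 alpha subunit genes of the core, none passed the test (none also at an unadjusted p under 0.05 or with an ordinary t statistic), and their log2 changes ran from -0.01 to 0.10 with a median of 0.02. The smallest p was that of Psma7, at 11.66, 11.72, 11.64 and 11.64 on the log2 scale on the cisplatin arrays (replicates 3 to 6 in order, here and below) and 11.57, 11.63, 11.52 and 11.55 in the controls. The groups of Psma7 did not overlap, but the change of 0.10 ± 0.05 (log2 fold change ± SE, 4 arrays against 4) did not pass (adjusted p = 0.225). Psma4 followed with 11.70, 11.67, 11.65 and 11.73 on the cisplatin arrays and 11.65, 11.63, 11.62 and 11.60 in the controls. Its groups overlapped slightly, at 0.06 ± 0.05 (adjusted p = 0.416). For Psma1, Psma2, Psma3, Psma5 and Psma6 the changes were between -0.01 and 0.02.

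The 7 constitutive beta subunit genes had a median log2 change of 0.10, and none passed the test, while 1 had an unadjusted p under 0.05 and 1 passed with an ordinary t statistic. That gene was Psmb6, which carries the caspase-like site, at 11.98, 11.93, 12.00 and 11.95 with cisplatin and 11.82, 11.83, 11.89 and 11.86 in the controls. The lowest cisplatin array of Psmb6 was above the highest control array, and the change was 0.12 ± 0.05 (adjusted p = 0.128). The structural subunit gene Psmb2 was at 11.08, 11.00, 10.95 and 11.03 with cisplatin and 10.92, 10.92, 10.80 and 10.93 in the controls. Its groups were also apart, with a change of 0.12 ± 0.05 (adjusted p = 0.163). Psmb4 was at 0.11, Psmb3 at 0.10 and Psmb1 at 0.08. Psmb5, which carries the chymotrypsin-like site, was at 0.03 ± 0.05 and Psmb7, which carries the trypsin-like site, at -0.04 ± 0.07.

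With an intensity trend in the test Psma7, Psmb2, Psmb3, Psmb4 and Psmb6 passed at the same changes of about 0.10 to 0.12, with adjusted p from 0.00526 for Psmb6 to 0.0333 for Psma7 (limma). Under centring, by contrast, all of these changes lay below 0, from -0.04 for Psmb3 to -0.01 for Psmb2, and none passed. Centring also left the typical gene below 0, with a median over all genes of -0.12, so negative signs there are not particular to these genes. With quantile normalization between arrays repeated, the same genes stayed positive, from 0.12 for Psma7 to 0.14 for Psmb6. None passed in that fit either (limma). The sign of these small changes thus depends on the normalization chosen. Averaged over the 14 constitutive core genes, the log2 level was 11.53, 11.52, 11.51 and 11.53 with cisplatin and 11.48, 11.48, 11.48 and 11.45 in the controls, a difference of 0.05. The beta genes made up more of it (0.07) than the alpha genes (0.03).

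Of the 16 cap genes measured, only Psmc1 passed the test. Psmc1 encodes an ATPase of the ring that docks on the core and helps to open its gate. It was at 10.80, 10.80, 10.82 and 10.79 with cisplatin and 10.62, 10.67, 10.68 and 10.58 in the controls. All cisplatin arrays were above all control arrays, with a change of 0.16 ± 0.05 (1.12-fold, adjusted p = 0.0404, limma). The call was lost when any 1 of the 8 arrays was left out (adjusted p from 0.0598 to 0.0997) and after centring, where the change was 0.03 (adjusted p = 0.661). Its other probe set, below background, was at 0.05 (adjusted p = 0.744 when taken as the most variable one).

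The other 4 ATPase genes measured, Psmc2, Psmc3, Psmc4 and Psmc5, had changes from -0.02 to 0.06. Psmc3 was at 10.67, 10.69, 10.62 and 10.61 with cisplatin and 10.58, 10.59, 10.56 and 10.59 in the controls, which do not overlap but differ by only 0.06 ± 0.05 (adjusted p = 0.409). None of the 11 non-ATPase genes passed (1 at an unadjusted p under 0.05, 2 with an ordinary t statistic), and their median change was 0.03. The smallest p-values belonged to Psmd4 and Psmd8. Psmd8, a subunit gene of the cap's outer part, was at 10.97, 11.00, 11.02 and 10.93 with cisplatin and 10.83, 10.85, 10.86 and 10.86 in the controls. The groups of Psmd8 were apart, at 0.13 ± 0.05 (adjusted p = 0.0962), and it passed without dim genes (adjusted p = 0.0474), with an ordinary t statistic (0.0139) or an intensity trend (0.00693). Psmd4, which encodes a ubiquitin receptor, was at 11.41, 11.39, 11.40 and 11.41 with cisplatin and 11.31, 11.37, 11.33 and 11.34 in the controls, or 0.06 ± 0.05 (adjusted p = 0.408). It passed with an ordinary t statistic (adjusted p = 0.0415). Psmd14, the deubiquitinase of the cap, lay lowest at -0.06 ± 0.06, and passed as lower after centring, at -0.19 (adjusted p = 0.0489). The 2 probe sets assigned to both Psmd13 and Sirt3, which were left out and not tested, went opposite ways, the brighter by 0.02 and the dimmer, at 4.33 with cisplatin and 4.50 in the controls, by -0.17.

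Under the authors' normalization, and for the variation among these samples, the intervals bound what was missed. Over the 30 core and cap genes the 95% intervals of the change, before any adjustment for the number of genes, reached down to 1.14-fold lower (Psmd14) and up to 1.21-fold higher (Psmc1), and 27 of the 30 included 0. Their changes ran from -0.06 to 0.16 on the log2 scale. Centring the arrays lowers every change by 0.13 and so moves these bounds down. The 1266 genes at least as bright as the dimmest core or cap subunit include the 30 themselves. Their changes ran from -0.19 to 0.14 between the bounds of their lowest and highest deciles, and 17.1% of them passed the test, against 1 of the 30 (3.33%). With an intensity trend 7 of the 30 passed and with an ordinary t statistic 4, where 22.7% and 16.3% of all genes did. The share of the core and cap genes thus depends on the test. The shares of the 1266 bright genes under these other tests were not computed, so the comparison at like brightness holds for the main fit only. Changes of this size say nothing of the amount or activity of the proteasome protein, and normalization between arrays hides any change of total RNA per cell.

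**Figure D2:**
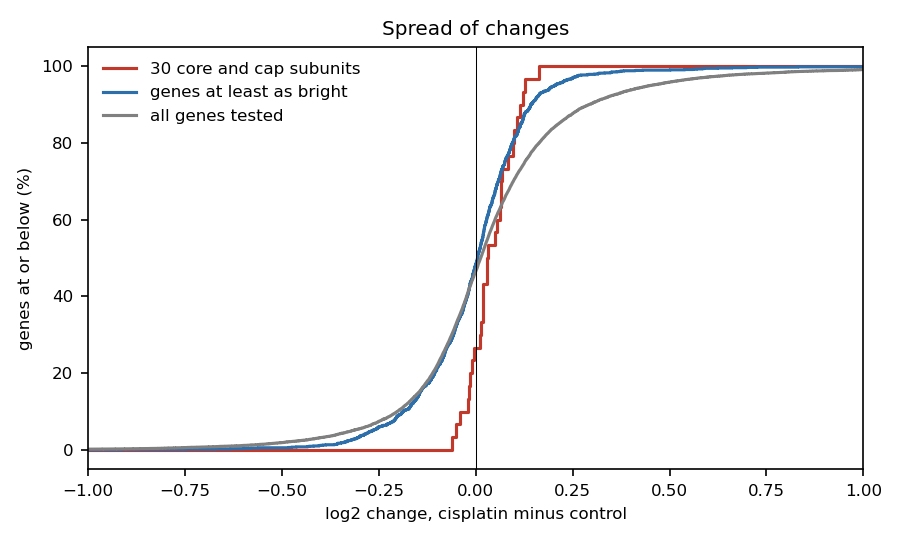
Cumulative share of genes (%) against the log2 change, cisplatin minus control, for the 30 core and cap subunits (red), the 1266 genes at least as bright (blue) and all 17098 genes tested (grey). The red curve runs from -0.06 to 0.16, inside the range of the other curves.

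Of the 3 immunoproteasome genes only Psmb9 passed the test, while all 3 changes were positive. Psmb9 was at 5.75, 5.98, 6.33 and 5.79 with cisplatin and 5.21, 5.16, 5.03 and 4.88 in the controls. Every cisplatin array lay above every control array, and the change was 0.90 ± 0.13 (1.86-fold, 95% interval 0.62 to 1.18, adjusted p = 0.000877, limma), which places it at rank 693 of the 17098 genes by p. Psmb8, which replaces Psmb5, was at 4.65, 4.40, 4.80 and 4.80 with cisplatin and 4.93, 4.18, 4.73 and 4.11 in the controls. The Psmb8 arrays overlapped widely, and the change of 0.17 ± 0.18 did not pass (95% interval -0.23 to 0.58, adjusted p = 0.586). Psmb10, which replaces Psmb7, was at 8.25, 7.96, 7.75 and 7.90 with cisplatin and 8.12, 7.71, 7.69 and 7.99 in the controls. Its groups overlapped too, at 0.09 ± 0.12 (95% interval -0.19 to 0.36, adjusted p = 0.711). The intervals of Psmb8 and Psmb10 lie below that of Psmb9 but are wide, so smaller rises of these genes would not have been detectable on 4 arrays a group.

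The call of Psmb9 held under all 19 alternatives, with log2 changes from 0.77 to 1.41, and its direction did not depend on centring. It has 3 probe sets. Besides the brightest, 1 was at 5.07, 5.52, 5.42 and 5.50 with cisplatin and 3.56, 4.12, 4.00 and 4.20 in the controls, a change of 1.41 ± 0.14 (2.65-fold, adjusted p = 0.000139 over all single-gene probe sets, limma). The last was near the background of 3.10 in both groups, at 3.05 ± 0.20 with cisplatin and 2.95 ± 0.10 in the controls (SD, n = 4), and so gives no measure of the change. Both probe sets that are above background thus place the groups apart, and they differ in size.

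Within each array the log2 difference between Psmb9 and Psmb6 does not depend on how arrays are centred. It was 0.78 larger with cisplatin than in the controls, and the groups did not overlap (two-sided exact permutation test over 70 assignments of the arrays, p = 0.0286, the smallest this design allows). For Psmb8 minus Psmb5 the shift was 0.14 (exact p = 0.543) and for Psmb10 minus Psmb7 it was 0.13 (exact p = 0.514). Adjusted over these 3 pairs the p-values were 0.0857, 0.543 and 0.543, so with 4 arrays a group no pair could have passed unless others did as well.

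**Figure D3:**
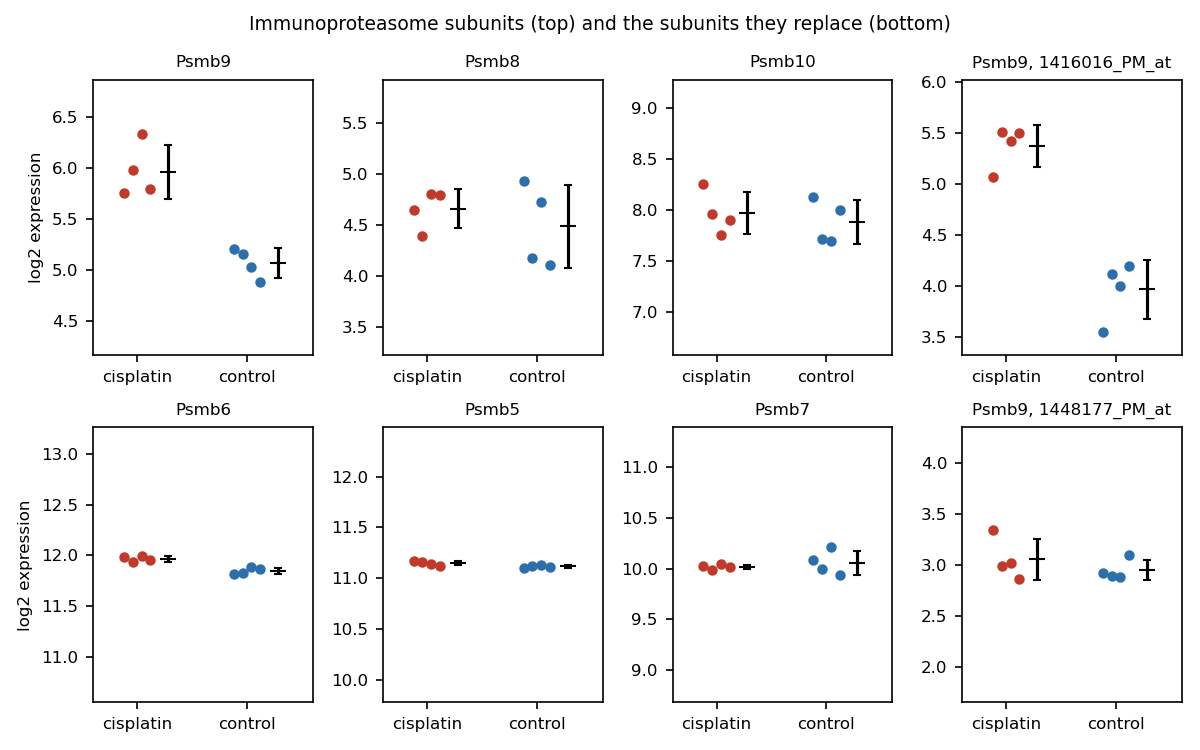
Log2 expression on each array for the immunoproteasome genes (top row) and the constitutive subunit genes they replace (bottom row), cisplatin left of control, with mean ± SD in black; the last column holds the other 2 probe sets of Psmb9. All axes span the same number of log2 units, and the groups lie clearly apart for 2 of the 3 Psmb9 probe sets.

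Psmb9 and Psmb8 flank Tap1, a peptide transporter gene of antigen presentation, on the reference assembly; Tap1 was not analysed here. Of the 8 genes listed for MHC class I presentation 5 were measured, and none passed (1 at an unadjusted p under 0.05, none with an ordinary t statistic). Nlrc5, the class I transactivator gene, came closest at 0.41 ± 0.13 (adjusted p = 0.0512), with means of 3.14 with cisplatin and 2.73 in the controls, around the background. The class I heavy chain gene H2-K1 was at 0.11 ± 0.06 (adjusted p = 0.218). Of 9 interferon signalling genes 7 were measured and none passed (1 at an unadjusted p under 0.05, none with an ordinary t statistic). Irf1, a transcription factor known to drive Psmb9 under interferon, was at 0.03 ± 0.09, and Ifit3 had the smallest p, at 0.17 ± 0.06 (adjusted p = 0.0735) and below background in both groups.

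Since blood cells carry the immunoproteasome, markers of such cells were read beside Psmb9. Of 7 measured, 2 were higher, the macrophage gene Cd68 by 0.97 ± 0.15 (adjusted p = 0.00130, limma) and Cd14 by 0.36 ± 0.08 (adjusted p = 0.00905), while Cd14 lay below background in both groups. Of the 5 that did not pass, Ptprc, Lyz2 and Itgam lay below background in both groups. The macrophage gene Csf1r lay above it, at 3.53 with cisplatin and 3.41 in the controls (adjusted p = 0.385), as did the T cell gene Cd3e, at 4.19 with cisplatin and 4.33 in the controls (adjusted p = 0.329). The mean over the list ran from 3.55 to 3.70 with cisplatin and from 3.41 to 3.53 in the controls. Of 10 fibroblast markers Thy1 was higher, by 0.61 ± 0.15 (adjusted p = 0.0176), and 7 were below background in both groups. Col1a1 and Col3a1 lay above background and did not pass. Col1a1 was at 3.37 with cisplatin and 3.46 in the controls (adjusted p = 0.551), and Col3a1 at 3.49 and 3.55 (adjusted p = 0.882, limma). The fibroblast list means were 2.97 to 3.26 with cisplatin and 3.02 to 3.20 in the controls. The part of Cd68- or Thy1-bearing cells in the Psmb9 change was not tested. In these bulk samples a change in the makeup of the cells and one in RNA per cell cannot be told apart. The ES cell markers were bright, with list means of 11.28 to 11.34 with cisplatin and 11.42 to 11.48 in the controls, and 3 of 7 (Zfp42, Utf1 and Nanog) were lower.

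The tissue-restricted core genes did not pass (1 of 2 at an unadjusted p under 0.05, none with an ordinary t statistic). Psma8, known for its role in the testis, was at 8.21, 8.41, 8.32 and 8.12 with cisplatin and 8.02, 8.27, 8.29 and 8.09 in the controls, with a change of 0.10 ± 0.09 (adjusted p = 0.514) and overlapping groups. Psmb11, the subunit gene of the thymus, was at 2.55, 2.57, 2.54 and 2.37 with cisplatin and 2.36, 2.19, 2.20 and 2.43 in the controls. It was the only member below background in both groups, and its change of 0.21 ± 0.07 did not pass (adjusted p = 0.0780), though it did without cisplatin replicate 6 or without control replicate 6 (adjusted p = 0.0476 and 0.0418).

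The alternative activators of the core showed small changes. Psme1 and Psme2 encode the subunits of an activator ring that interferon induces, and on the reference assembly only Emc9 lies between the genes. Psme1 was at 9.66, 9.62, 9.61 and 9.39 with cisplatin and 9.40, 9.28, 9.34 and 9.39 in the controls. The single low cisplatin array made its groups overlap, and the change of 0.22 ± 0.07 (1.17-fold) passed only just (adjusted p = 0.0499, limma). The call was lost without any array except cisplatin replicate 6 (adjusted p from 0.0719 to 0.123 for the other 7, and 0.0108 without that replicate). It was also lost after centring, at 0.09 (adjusted p = 0.383). Psme2 averaged 9.27 ± 0.14 with cisplatin and 9.04 ± 0.16 in the controls (SD, n = 4), or 0.24 ± 0.09 (adjusted p = 0.116). The change of Psme2 passed under 3 of 19 alternatives, among them an intensity trend (adjusted p = 0.0355) and the fit without control replicate 3 (adjusted p = 0.0472). Psme3, whose product forms a related nuclear ring, was at -0.12 ± 0.07 (adjusted p = 0.305), and passed as lower after centring, at -0.25 (adjusted p = 0.0431).

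Psmf1, which encodes a proteasome-binding protein first described as an inhibitor, was at 7.48, 7.50, 7.73 and 7.42 with cisplatin and 7.13, 7.37, 7.32 and 7.39 in the controls. The groups were just apart, at 0.23 ± 0.08 (adjusted p = 0.0871). Its 4 probe sets gave changes of 0.16, 0.21, 0.23 and 0.27, of which the largest passed over all single-gene probe sets (adjusted p = 0.0359). Psmf1 also passed with an intensity trend (adjusted p = 0.0450).

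Of the 6 assembly factor genes none passed (2 at an unadjusted p under 0.05, 1 with an ordinary t statistic), and the median change was 0.01. Those with the smallest p went opposite ways. Psmg1, a chaperone gene for the alpha ring, was at 11.00, 10.99, 10.89 and 11.00 with cisplatin and 10.87, 10.84, 10.79 and 10.85 in the controls, or 0.13 ± 0.05 (adjusted p = 0.0993). Psmg4, of another chaperone pair, was at 7.88, 7.78, 7.83 and 7.85 with cisplatin and 7.91, 7.91, 7.96 and 8.08 in the controls, or -0.13 ± 0.06 (adjusted p = 0.146). For both genes the groups did not overlap. Psmg1 passed with an ordinary t statistic (adjusted p = 0.0397) or an intensity trend (adjusted p = 0.00926), and Psmg4 after centring, at -0.26 (adjusted p = 0.0145). Psmg2, Psmg3, Psmd5 and Psmd9 had changes between -0.08 and 0.05; Psmg2 passed as lower after centring, at -0.21 (adjusted p = 0.0425).

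Both genes that carry a subunit's name without being subunits passed the test. Psmc3ip encodes a recombination factor that works in meiosis. It was at 9.33, 9.32, 9.39 and 9.26 with cisplatin and 9.02, 8.98, 9.05 and 8.97 in the controls, with no overlap. The change of 0.32 ± 0.05 (1.25-fold, adjusted p = 0.00178, limma) held under all 19 alternatives, from 0.19 after centring to 0.34. Psme3ip1, whose product binds the nuclear activator ring, was at 9.51, 9.59, 9.46 and 9.53 with cisplatin and 9.27, 9.39, 9.31 and 9.27 in the controls. It rose by 0.21 ± 0.05 (1.16-fold, adjusted p = 0.0193), though not after centring, at 0.08 (adjusted p = 0.300), nor without cisplatin replicate 4 or control replicate 3 (adjusted p = 0.0544 and 0.0578). Without these genes, 3 of 45 members were higher.

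**Figure D4:**
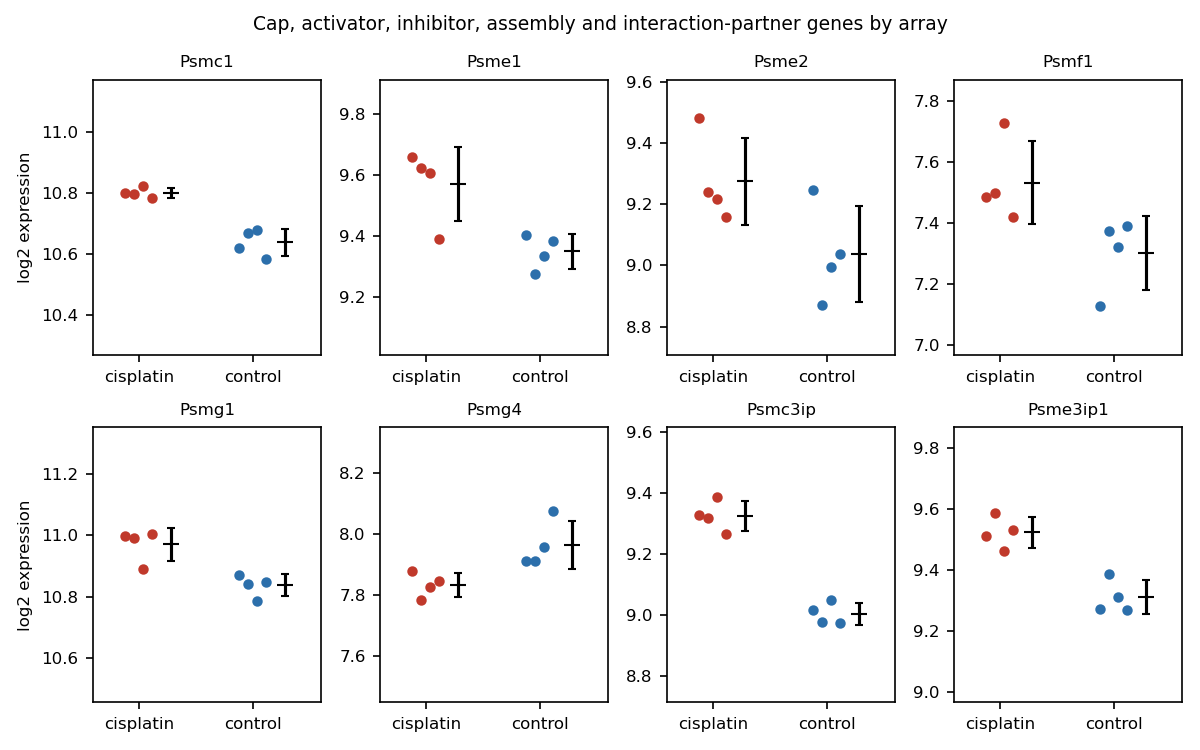
Log2 expression on each array for 8 members outside the core, cisplatin left of control, with mean ± SD in black and axes of equal span. The groups are apart for Psmc1, Psmf1, Psmg1, Psmc3ip and Psme3ip1, higher with cisplatin, and for Psmg4, lower. Of these, Psmf1, Psmg1 and Psmg4 did not pass the test. Psme1 shows 1 low cisplatin array at 9.39.

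Genes that work with the proteasome were read from lists by role. Of 12 partner genes of the cap and of assembly 8 were measured, none was higher and 1 was lower: Ube3c, a ubiquitin ligase that binds the proteasome, fell by 0.27 ± 0.05 on the log2 scale (adjusted p = 0.00610, limma), though not as the mean of its probe sets (-0.19, adjusted p = 0.0536). With an intensity trend 5 of the 8 partner genes passed, where 22.7% of all genes did. An unadjusted p under 0.05 (limma) was found for 6 of the 8, where 5306 of all 17098 genes had one. Pomp, the maturation factor of the core, was at 0.12 ± 0.05 (adjusted p = 0.145) and the cap subunit gene Sem1 at 0.12 ± 0.05 (adjusted p = 0.140). Of the 8 shuttle factors listed, which carry ubiquitinated proteins to the cap, 6 were measured and only Rad23b passed, at -0.29 ± 0.07 (adjusted p = 0.0143), but not by its most variable probe set (adjusted p = 0.453). With an intensity trend 3 of the 6 passed, and 3 had an unadjusted p under 0.05. The changes of 5 of the 6 were negative, among them Ubqln2 at -0.18 ± 0.07 (adjusted p = 0.0922) and Ubqln4 at -0.19 ± 0.07 (adjusted p = 0.102), with a list median of -0.14. Of 6 ubiquitin and activating enzyme genes only Uba6 was measured, below background at 0.13 ± 0.08 (adjusted p = 0.272).

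The route that controls proteasome genes was listed with 13 genes, of which 10 were measured, 4 were higher and 1 was lower. Nfe2l1 itself was lower, at -0.20 ± 0.05 (adjusted p = 0.0210, limma), except without cisplatin replicate 6 or control replicate 3 (adjusted p = 0.0518 and 0.0658). Mafk and Maff, small Maf genes whose products pair with it, rose by 0.49 ± 0.07 (adjusted p = 0.00130) and 0.41 ± 0.12 (adjusted p = 0.0393). Sel1l and Syvn1, genes of the ligase complex that removes proteins from the endoplasmic reticulum, rose by 0.35 ± 0.07 (adjusted p = 0.00912) and 0.27 ± 0.08 (adjusted p = 0.0330). The calls of Maff, Sel1l and Syvn1 were lost after centring (adjusted p = 0.0837, 0.0602 and 0.211). That of Sel1l also ended by its most variable probe set (adjusted p = 0.637) and that of Syvn1 without probe sets marked as less specific (adjusted p = 0.288). Leaving out 1 array ended the call of Maff in 5 of 8 cases and that of Syvn1 in 6 of 8 (highest adjusted p = 0.0940 and 0.0814).

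Of 7 genes of the response to damaged proteins 6 were measured, 3 were higher and 1 was lower. The heat shock genes Hspa1b and Dnajb1 rose by 0.78 ± 0.13 and 0.51 ± 0.05 (adjusted p = 0.00277 and 0.000165, limma), and Zfand2a, a stress-induced gene whose product binds the proteasome, by 0.44 ± 0.06 (adjusted p = 0.000709). Herpud1, of the endoplasmic reticulum, was lower at -0.60 ± 0.12 (adjusted p = 0.00586). Hspa1b has a near-identical copy, Hspa1a, so its probe set may read both.

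**Figure D5:**
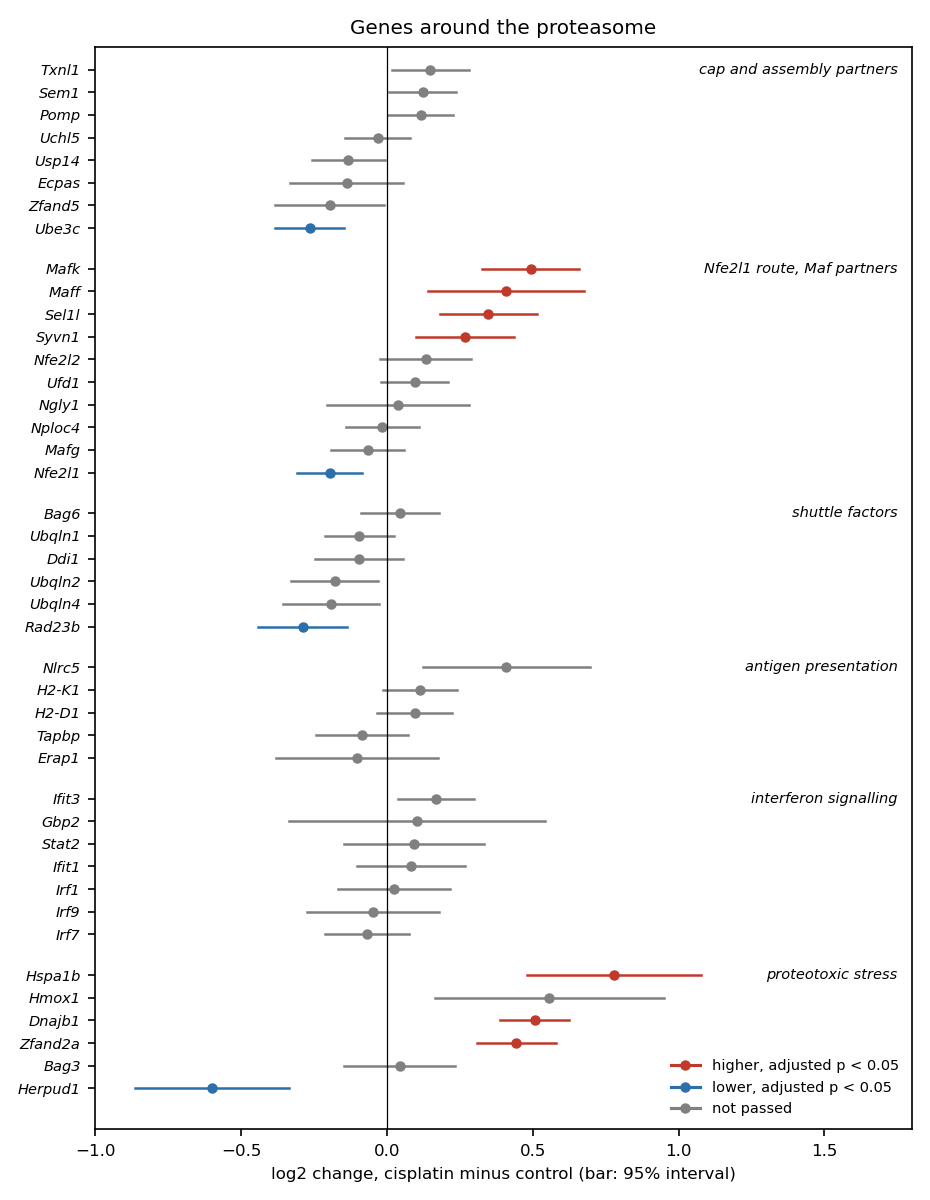
Log2 change (cisplatin minus control) with 95% intervals for genes that work with the proteasome, by list; red passed as higher, blue as lower and grey did not pass. Higher genes are found in the Nfe2l1 route list and the proteotoxic stress list, from 0.27 for Syvn1 to 0.78 for Hspa1b.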

How the data were processed

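The values the authors deposited are log2 expression levels in a single table, made with RMA (background correction, normalization between arrays, summary of the probes of a probe set) per the submitters' processing notes, which also name limma without a version. Per the labels' protocols, labelled RNA was made by a 3′ in vitro transcription method. Only the 28898 of 45141 probe sets annotated to a single gene were used, leaving out 551 with several genes, 15588 unnamed here and 104 controls. Symbols were updated through Entrez identifiers by RefSeq (GRCm38.p6), which held 16937 of the 17098 genes. Groups come from the sample titles. Groups were compared with limma 3.58.1 under R 4.3.3 (lmFit and eBayes, no covariate), p-values were adjusted over all genes after Benjamini and Hochberg with a threshold of 0.05, no dim genes were removed, and the procedure was tested on simulated data. Background, 3.10 on the log2 scale, is the level of unspecific probes with 24 G or C. Arrays correlated at 0.997 to 0.998 within groups and 0.992 to 0.995 between them.

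Members and lists were chosen with earlier results of these data known. Values per array are given for called members changed at least 1.2-fold, for Psmb8, Psmb9 and Psmb10 and for the 2 smallest p of each role; of the other lists, called genes and the smallest p are named. The others named (Pomp, Sem1, H2-K1, Irf1, Tap1, Hspa1a, Ubqln2, Ubqln4, Ptprc, Lyz2, Itgam, Csf1r, Cd3e, Col1a1, Col3a1) were chosen after their values were seen. Same-numbered arrays deviated together with correlations of 0.20, 0.18, 0.20 and 0.06, all positive. The labels name no shared culture, so the main fit did not pair the samples by number. Whether same-numbered samples share a culture was not tested, and calls with the number as a block are given at the end. Alternatives covered probe set, dim genes, normalization, test, threshold, replicate block and each array left out; fitting every probe set on its own was added after seeing the data. Promoter sequences are RefSeq's. Figures used matplotlib 3.10.9 in Python 3.11.15.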

Additional observations from a re-analysis of the deposited data

Results flagged for a closer look

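In 4 of 116 groups of 4 arrays looked at (58 genes in each group), 1 array stood far from the other 3 by Dixon's criterion, where chance gives about 1 in 20. Psmg1 was at 10.89 on cisplatin replicate 5, below the next array at 10.99. Psmb2 was at 10.80 on control replicate 5, below the next at 10.92. Psmb11, below background, was at 2.37 on cisplatin replicate 6 with the others from 2.54 to 2.57. Ube3c was at 7.67 on cisplatin replicate 3, above the next at 7.56.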

How the results depend on the processing

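The count of 5 higher members became 3 with the most variable probe set, 2 after centring, 14 with an intensity trend, 8 with an ordinary t statistic and 2 at an adjusted p under 0.01. It ran from 2 to 5 when 1 array was left out; 2 members passed without cisplatin replicate 4, and 3 when cisplatin replicate 3 or 5 was dropped, likewise for control replicates 3, 4 and 5. The count of 0 lower members (limma; 1 at an unadjusted p under 0.05, Psmg4, and 0 with an ordinary t statistic) became 4 after centring, namely Psmd14, Psme3, Psmg2 and Psmg4, since centring lowers every change. Over all genes 3303 were called, 5012 after centring (1087 higher and 3925 lower), 1855 at an adjusted p under 0.01 (1113 higher and 742 lower) and 2617 to 3042 without 1 array. Psmb9 and Psmc3ip kept their calls under all 19 alternatives. Samples share replicate numbers but not a stated culture; with a replicate block 3447 genes were called and 4 members were higher, Psmc1 and Psme1 losing their calls (adjusted p = 0.0588 and 0.0722) and Psme2 gaining one (adjusted p = 0.0344). Signal over background limits Psmb8, Psmb11 and the dimmest Psmb9 probe set.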
